A study of Mus musculus with 6 samples.

Results

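The genes of serine synthesis and of the folate one-carbon cycle were followed in astrocytes, the star-shaped glial cells of the brain. The set is a fixed list of 10 genes, out of 35127 measured in the series. Phgdh, Psat1 and Psph make serine. Shmt2, Mthfd2, Mthfd1l and Aldh1l2 encode mitochondrial folate enzymes, and Shmt1, Mthfd1 and Aldh1l1 encode cytosolic ones. All 10 genes passed the filter on low counts.

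The study compared 6 bulk RNA-seq libraries. Tumour libraries 1 to 3 hold mouse astrocytes isolated from a brain allograft of SCLC (small cell lung cancer, a neuroendocrine tumour prone to brain metastasis), and sham libraries 1 to 3 hold mouse astrocytes of sham-injected brains. The sources used here do not give strain, age, genotype or the way astrocytes were isolated. Nor do they say which animals or cultures stand behind each library, so the p-values reflect spread among libraries that may be technical.

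As background, serine is built from a glycolytic intermediate by the enzymes PHGDH, PSAT1 and PSPH in turn. Serine hydroxymethyltransferases then pass a carbon unit from serine to tetrahydrofolate, leaving glycine. In the mitochondria this unit is oxidised to formate, which leaves for the cytosol, where it serves purine, thymidylate and methionine synthesis. Astrocytes are known as a source of serine for neurons in the brain, and ALDH1L1 is a widely used astrocyte marker.

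Depth was similar, from 24524764 to 25800897 estimated reads in the tumour libraries and from 22133723 to 23328811 in the sham libraries. Tumour libraries 1 to 3 nearly coincided, with root mean square log2 differences of 0.322 to 0.352 between them over the tested genes, and sham 1 and 2 did so too (0.351). Sham 3 stood apart from sham 1 and 2 (0.802 and 0.795), by more than the tumour libraries stood from any sham library (0.734 to 0.749). Of the 14359 tested genes, 20.9% were called in either direction (adjusted p below 0.05, from edgeR's quasi-likelihood test with the Benjamini-Hochberg method), 10.5% higher and 10.4% lower in tumour than in sham libraries. Genes of the mitochondrial genome took 4.05% to 4.23% of reads in tumour libraries 1 to 3, against 6.66%, 6.2% and 4.2% in sham libraries 1 to 3, and the part of this difference in the results was not tested. The groups did not overlap in 44.1% of the tested genes.

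The 4 mitochondrial genes were all higher in the tumour libraries, by 2.17- to 3.86-fold. None of the 3 serine synthesis genes passed the test. Of the 3 cytosolic genes, Aldh1l1 was higher, Mthfd1 lower and Shmt1 not called. In all, 5 of 10 members were called higher (background 10.5%) and 1 lower (background 10.4%), and 4 were called and at least 2-fold higher (background 3.0%). The groups did not overlap for 7 of 10 members (background 44.1%). Leaving out tumour 1, 2 or 3 left 3 members higher and 0 lower in each case, against 6.17%, 6.33% and 6.3% of all tested genes called in either direction. Without sham 1 or sham 2, 4 members were higher and 0 lower (background 11.0% and 10.4%), and without sham 3, 5 were higher and 2 lower (background 57.7%). In bulk RNA a change in the share of a cell type and a change of RNA per cell cannot be told apart.

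Promoters of the 3 mitochondrial members that have an entry in RefSeq (build GRCm38.p6) are shown because these genes moved together, with that of Shmt1, the cytosolic counterpart of Shmt2, beside them. Each sequence runs from 250 bases before to 50 bases after a start of the gene in RefSeq, 5′ to 3′ on the gene's own strand. Capitals mark ACGTG or GCGTG, the core letters of hypoxia response elements, on either strand. They lie at chr10:127522395-127522694 (minus strand, Shmt2), chr6:83317555-83317854 (minus strand, Mthfd2), chr10:3972825-3973124 (plus strand, Mthfd1l) and chr11:60811216-60811515 (minus strand, Shmt1). The RefSeq starts of Mthfd2 and Shmt1 lie inside the wider GENCODE spans given for these genes.
Shmt2: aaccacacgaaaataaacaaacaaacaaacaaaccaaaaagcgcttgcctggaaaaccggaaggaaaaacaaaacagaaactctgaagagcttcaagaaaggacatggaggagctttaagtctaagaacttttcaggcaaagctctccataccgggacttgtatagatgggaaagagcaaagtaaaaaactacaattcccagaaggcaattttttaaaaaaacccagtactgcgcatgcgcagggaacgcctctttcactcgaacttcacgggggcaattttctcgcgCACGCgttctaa
Mthfd2: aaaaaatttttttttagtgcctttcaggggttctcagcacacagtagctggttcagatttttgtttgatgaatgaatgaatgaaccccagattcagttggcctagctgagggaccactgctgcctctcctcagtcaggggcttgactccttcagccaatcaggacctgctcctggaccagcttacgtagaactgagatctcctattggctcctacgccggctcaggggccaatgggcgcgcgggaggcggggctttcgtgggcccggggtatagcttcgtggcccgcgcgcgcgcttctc
Mthfd1l: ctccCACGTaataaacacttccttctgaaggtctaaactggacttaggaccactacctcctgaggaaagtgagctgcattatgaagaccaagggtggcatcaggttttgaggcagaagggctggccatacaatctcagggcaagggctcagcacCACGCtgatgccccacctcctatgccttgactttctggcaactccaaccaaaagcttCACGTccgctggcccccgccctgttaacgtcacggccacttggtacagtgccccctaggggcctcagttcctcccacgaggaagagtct
Shmt1: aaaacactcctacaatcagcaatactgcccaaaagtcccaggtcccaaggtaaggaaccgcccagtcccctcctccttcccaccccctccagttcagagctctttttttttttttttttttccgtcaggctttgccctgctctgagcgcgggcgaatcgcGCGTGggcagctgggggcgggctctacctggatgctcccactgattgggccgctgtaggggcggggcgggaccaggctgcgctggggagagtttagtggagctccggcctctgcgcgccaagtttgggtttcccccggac

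Promoter entries were found for 9 of the 10 members, all but Aldh1l2. The HIF core letters ACGTG or GCGTG stood in at least 1 entry of 7 of these 9 genes, against 43.8% of all 32851 promoter entries. The members were counted per gene and the background per entry. A gene with more than 1 entry, such as Psat1 with 2, had more chances to match. Mthfd1l held 3 such matches, 2 of ACGTG and 1 of GCGTG, and Shmt2 held 1. Mthfd2 and Aldh1l1, both called higher, held none. Phgdh, Psat1 and Psph, which were not called, each held at least 1, as did Shmt1 and Mthfd1. The part of these letters in the results was not tested. The letters TGATGNAA on either strand, a core of the composite element read by ATF4 with C/EBP partners, stood in 0 of the 9 and in 3.97% of all promoter entries.

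Shmt2, the first mitochondrial enzyme, which splits serine into glycine and a one-carbon unit, lies on chromosome 10 from 127517123 to 127522444 (mm10, minus strand). It stood at 70.0, 70.3 and 71.9 CPM (reads scaled to library size by TMM) in tumour libraries 1 to 3, against 29.6, 29.5 and 38.8 CPM in sham libraries 1 to 3. The groups did not overlap, and sham 3 was the highest of the sham libraries. The level averaged 70.8 ± 1.02 CPM in tumour and 32.6 ± 5.35 CPM in sham libraries (SD, n = 3 each), 2.17-fold higher in tumour (log2 fold change 1.12, SE 0.12; adjusted p = 0.00242, edgeR). At its 3′ end it shares 32 of 3109 exon bases with Ndufa4l2 on the opposite strand, a gene at 34.1 to 36.2 CPM in tumour and 0.125 to 0.22 CPM in sham libraries. The sources used here do not state strandedness, so reads on these shared bases cannot be assigned by strand. Most reads of Shmt2 fell on the 2 main protein-coding transcripts, with 23.3% to 37.4% on the shorter one (Shmt2-206) in tumour and 18.2% to 22.3% in sham libraries.

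Mthfd2, which encodes the mitochondrial methylenetetrahydrofolate dehydrogenase and cyclohydrolase, lies on chromosome 6 from 83305691 to 83325908 (mm10, minus strand). Its level was 48.7, 46.1 and 45.0 CPM in tumour libraries 1 to 3, and 12.9, 14.0 and 13.8 CPM in sham libraries 1 to 3. Here sham 3 lay between sham 1 and 2, and the gap between groups was wide beside the spread within each. The means were 46.6 ± 1.88 CPM in tumour and 13.6 ± 0.587 CPM in sham libraries (SD, n = 3 each), a 3.43-fold rise (log2 fold change 1.78, SE 0.07; adjusted p = 9.5e-05, edgeR). By unadjusted p it ranked 17 among the 14359 tested genes. Its related mitochondrial isozyme gene Mthfd2l, not a member, had 7.22 ± 0.871 CPM in tumour and 8.55 ± 0.929 CPM in sham libraries (adjusted p = 0.294).

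Mthfd1l, whose product releases formate in the mitochondria, lies on chromosome 10 from 3973118 to 4167081 (mm10, plus strand). It had 38.9, 39.0 and 38.9 CPM in tumour libraries 1 to 3, against 7.48, 6.32 and 16.5 CPM in sham libraries 1 to 3. Sham 3 was well above the other sham libraries, by 1.21 on the log2 scale, yet below every tumour library. The rise was 3.86-fold (log2 fold change 1.95, SE 0.35; adjusted p = 0.0126, edgeR), the largest among the 10 members, but with the largest SE. Without sham 3 the log2 fold change was larger, at 2.50, and without tumour 1, 2 or 3 the call was lost (adjusted p = 0.0596, 0.058 and 0.0581).

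Aldh1l2, the mitochondrial formyltetrahydrofolate dehydrogenase, which oxidises the carbon unit to carbon dioxide, lies on chromosome 10 from 83487450 to 83534140 (mm10, minus strand). It had 19.4, 22.9 and 21.1 CPM in tumour libraries 1 to 3, against 6.33, 5.2 and 7.35 CPM in sham libraries 1 to 3. The tumour libraries were all above the sham libraries, by 3.35-fold (log2 fold change 1.75, SE 0.15; adjusted p = 0.0013, edgeR). At its 3′ end it shares 1056 of 7503 exon bases with D10Wsu102e on the opposite strand, which had 110 to 120 CPM in tumour and 117 to 135 CPM in sham libraries. The part of those reads in the level of Aldh1l2 was not tested. Calls of Shmt2, Mthfd2 and Aldh1l2 remained whichever library was left out.

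**Figure D1:**
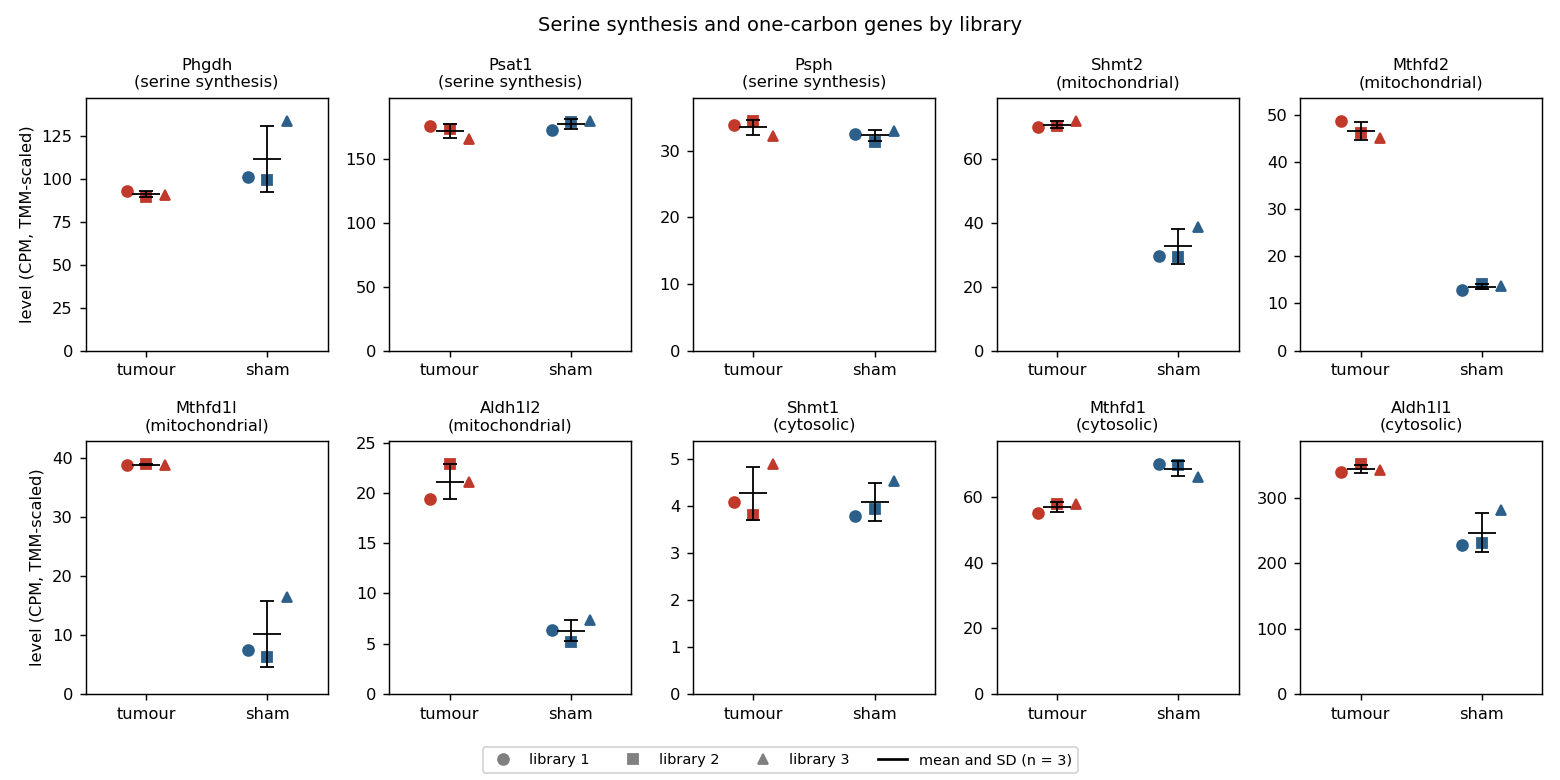
Level of each of the 10 genes in CPM (TMM-scaled) in tumour (left) and sham (right) libraries; symbols mark libraries 1 to 3 and black lines the mean and SD (n = 3). For the 4 mitochondrial genes no sham library reaches a tumour library, and sham 3 lies above sham 1 and 2 for 8 of the 10 genes, all but Mthfd2 and Mthfd1.

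The serine synthesis genes were abundant in both groups and close in level. Phgdh, the gene of the enzyme that commits the glycolytic intermediate to serine, lies on chromosome 3 from 98313170 to 98339990 (mm10, minus strand). It had 92.9, 89.5 and 90.9 CPM in tumour libraries 1 to 3, against 101, 99.7 and 134 CPM in sham libraries 1 to 3. The groups did not overlap, and sham 3 was the highest library. The difference (log2 fold change -0.29, SE 0.12) did not pass the test, with an edgeR adjusted p of 0.135. Without sham 3, a fit in which 57.7% of all tested genes were called, it was -0.14 with an adjusted p of 0.00514. Phgdh has 23 other genes, nearly all processed pseudogenes, that match its transcript over at least 200 bases at 85% identity or more, so its reads are less certain. The 20 copies that the tables hold summed to 3.93 to 5.34 CPM in tumour and 6.38 to 6.82 CPM in sham libraries. With them added, the log2 ratio of the group means was -0.30, against -0.29 without them.

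Psat1, the aminotransferase gene of the pathway's middle step, lies on chromosome 19 from 15904678 to 15947337 (mm10, minus strand). It had 176, 174 and 165 CPM in tumour libraries 1 to 3, against 173, 179 and 180 CPM in sham libraries 1 to 3, and the groups overlapped. Its log2 fold change was -0.05 (SE 0.06; adjusted p = 0.631, edgeR). Psph, the phosphatase gene of the last step, lies on chromosome 5 from 129765558 to 129787449 (mm10, minus strand). It had 33.8, 34.5 and 32.2 CPM in tumour libraries 1 to 3, against 32.5, 31.3 and 33 CPM in sham libraries 1 to 3. These groups overlapped as well, and the log2 fold change was 0.05 with an SE of 0.06 (edgeR adjusted p = 0.6). Psph shares 452 of 4329 exon bases with Cct6a on the opposite strand, a gene without a measured level here. The part of Cct6a reads in the level of Psph was not tested. Sham 3 lay above the mean of sham 1 and 2 by 0.03 for Psat1 and 0.05 for Psph on the log2 scale, against 0.41 for Phgdh.

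Cytosolic members moved apart from each other. Mthfd1, the trifunctional cytosolic enzyme gene that turns formate into the folate forms used for purines and thymidylate, lies on chromosome 12 from 76255298 to 76319803 (mm10, plus strand). It had 55.1, 58.0 and 57.9 CPM in tumour libraries 1 to 3, against 70.1, 69.8 and 66.2 CPM in sham libraries 1 to 3. The groups did not overlap and the fall was small, 1.21-fold (log2 fold change -0.27, SE 0.06; adjusted p = 0.0221, edgeR). This call was lost without any 1 library other than sham 3, where the adjusted p was between 0.0701 and 0.109.

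Aldh1l1, the cytosolic formyltetrahydrofolate dehydrogenase gene, lies on chromosome 6 from 90486427 to 90600203 (mm10, plus strand). It had 339, 352 and 343 CPM in tumour libraries 1 to 3, against 228, 231 and 281 CPM in sham libraries 1 to 3. All tumour values were above all sham values (1.4-fold; log2 fold change 0.48, SE 0.10; adjusted p = 0.0215, edgeR). This call, too, was lost without any 1 library other than sham 3 (adjusted p between 0.0791 and 0.099). Aldh1l1 shares 499 of 4516 exon bases with Gm15756 on the opposite strand, a gene without a measured level here. The part of its reads was not tested. Of the 8 other astrocyte markers listed, 0 rose and 1 fell (background 10.5% and 10.4%). The one that fell was Gja1 (connexin 43), with a log2 fold change of -0.94 (edgeR adjusted p = 0.0268). The 9 markers summed to 3140 to 3240 CPM in tumour libraries, and to 4590, 4600 and 2690 CPM in sham libraries 1 to 3. Sham 1 and 2 thus lay above every tumour library, and sham 3 below. All 9 were expressed in both groups.

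Shmt1, the cytosolic hydroxymethyltransferase gene, lies on chromosome 11 from 60788104 to 60811718 (mm10, minus strand). It was the least abundant member by reads, at 4.10, 3.82 and 4.90 CPM in tumour libraries 1 to 3, against 3.78, 3.95 and 4.54 CPM in sham libraries 1 to 3. The groups overlapped (log2 fold change 0.06, SE 0.18; adjusted p = 0.832, edgeR). Its 3′ end shares 184 of 3883 exon bases with Smcr8 on the opposite strand, a gene at 49.8 to 51.0 CPM in tumour and 44.9 to 46.6 CPM in sham libraries. Shmt1 itself had 93 to 124 reads in a tumour library and 86 to 100 in a sham library.

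**Figure D2:**
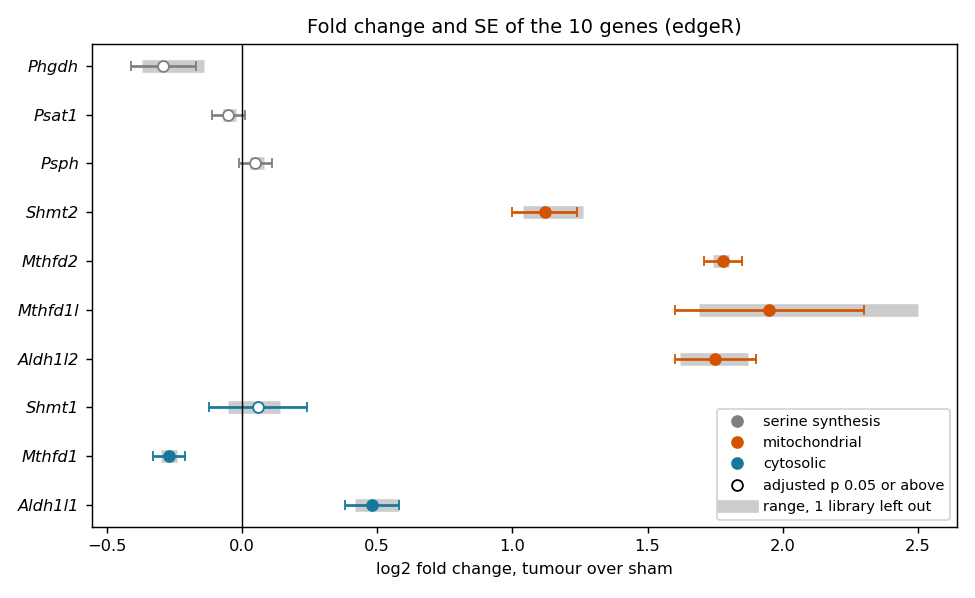
Log2 fold change of each gene, tumour over sham, with its SE (bars, edgeR, 3 against 3 libraries); open circles did not pass an adjusted p of 0.05, and grey bands span the values with 1 library left out. The 4 mitochondrial genes lie between 1.12 and 1.95, and the other 6 between -0.29 and 0.48.

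Set against each other per length, in TPM (the abundance per length that Salmon gives), the members kept part of their order. In the tumour libraries Aldh1l1 was the most abundant at 147.8 ± 3.20 TPM (SD, n = 3), followed by Psat1 at 118.7 ± 4.13, Phgdh at 70.9 ± 3.94 and Shmt2 at 47.9 ± 1.38 TPM. Then came Mthfd2 at 37.1 ± 0.877 TPM and Psph at 34.5 ± 3.01 TPM, whose libraries overlapped, Mthfd1 at 24.6 ± 0.786 TPM and Mthfd1l at 14.6 ± 0.171 TPM. Aldh1l2 at 5.17 ± 0.434 TPM and Shmt1 at 4.38 ± 1.83 TPM came last and overlapped. In the sham libraries the order was Psat1 at 119.1 ± 4.05 TPM (SD, n = 3), Aldh1l1 at 103.7 ± 14.9 and Phgdh at 81.4 ± 15.4 TPM, each overlapping its neighbour, then Mthfd1 at 29.2 ± 1.31 and Psph at 28.7 ± 1.39 TPM, which overlapped too. Below them were Shmt2 at 20.2 ± 3.67, Mthfd2 at 11.7 ± 1.27, Mthfd1l at 3.73 ± 2.12, Shmt1 at 2.91 ± 0.931 and Aldh1l2 at 1.52 ± 0.295 TPM, of which only Mthfd1l and Shmt1 overlapped.

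Summed per compartment, the 4 mitochondrial genes reached 104 to 107 TPM in tumour and 32.1 to 45.2 TPM in sham libraries. The 3 cytosolic genes summed to 172 to 180 TPM in tumour and 125 to 152 TPM in sham libraries, most of it from Aldh1l1. Without Aldh1l1, cytosolic Shmt1 and Mthfd1 stood at 27.6 to 30.3 TPM in tumour and 31.6 to 32.3 TPM in sham libraries. The serine synthesis genes summed to 221 to 227 TPM in tumour and 214 to 253 TPM in sham libraries. On the log2 scale, the mean of the 4 mitochondrial genes minus that of the 3 cytosolic genes (CPM with 0.5 added) was -0.13, -0.10 and -0.22 in tumour libraries 1 to 3, against -1.75, -1.87 and -1.46 in sham libraries 1 to 3. The group means differed by 1.55, beside SDs of 0.06 in tumour and 0.21 in sham libraries.

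Ratios of TPM within a library do not depend on scaling between libraries. Mthfd2 over Mthfd1 was 1.60, 1.43 and 1.49 in tumour libraries 1 to 3, against 0.343, 0.398 and 0.464 in sham libraries 1 to 3, so in TPM the mitochondrial gene exceeded the cytosolic one in the tumour libraries and not in the sham libraries. Mthfd1l over Mthfd1 was 0.621, 0.572 and 0.59 in tumour libraries 1 to 3, against 0.0902, 0.078 and 0.223 in sham libraries 1 to 3. Aldh1l2 over Aldh1l1 was 0.0322, 0.0371 and 0.0356 in tumour libraries 1 to 3, against 0.016, 0.0126 and 0.0151 in sham libraries 1 to 3. For these 3 pairs the groups did not overlap, and the tumour ratio was higher by 3.78-, 5.11- and 2.40-fold. An exact permutation test, two-sided, gave p = 0.1 for each, the smallest that 3 against 3 libraries allow (adjusted p = 0.133 over the 4 pairs).

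Shmt2 over Shmt1 was 7.66, 12.8 and 15.7 in tumour libraries 1 to 3, against 7.91, 7.31 and 6.14 in sham libraries 1 to 3. Tumour library 1 lay within the sham range, and the mean difference of 0.71 on the log2 scale had an exact permutation p of 0.2 (two-sided; adjusted p = 0.2). In CPM, which does not weigh transcripts by length, the difference was 1.07 and the groups did not overlap (exact permutation p = 0.1). The longest Shmt1 transcript held 75.3% of the Shmt1 reads in tumour 1, against 86.4% and 96.7% in tumour 2 and 3 and 85.5% to 98.5% in sham libraries, and the other reads lay on shorter transcripts.

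**Figure D3:**
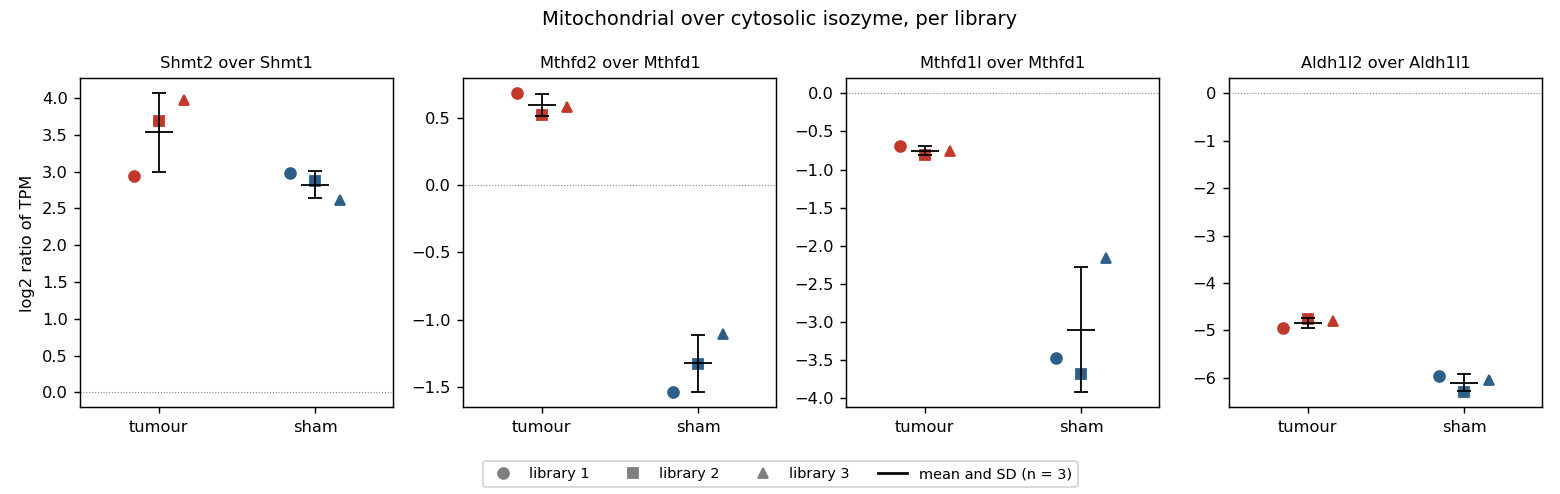
Log2 ratio of the TPM of a mitochondrial gene to that of its cytosolic counterpart in tumour (left) and sham (right) libraries, with mean and SD (n = 3) in black; vertical scales differ between panels. The groups separate for the 3 pairs with Mthfd1 or Aldh1l1, while tumour library 1 falls among the sham libraries for Shmt2 over Shmt1.

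Genes around the members were counted by list. Among 12 tested folate enzyme genes other than the members, 0 were called higher and 1 lower (background 10.5% and 10.4%), with a median log2 fold change of -0.17, against -0.017 over all tested genes. The one that fell was Tyms, thymidylate synthase, at 4.79 ± 0.594 CPM in tumour and 7.53 ± 0.776 CPM in sham libraries (SD, n = 3 each; edgeR adjusted p = 0.0343), a call lost without any 1 library other than sham 3. Of the 4 genes of the glycine cleavage system, which splits the glycine left by SHMT2, 0 rose and 1 fell. That was Dld, the dihydrolipoamide dehydrogenase shared with other complexes, with a log2 fold change of -0.29 (adjusted p = 0.0212), lost without any 1 library other than sham 3. Gldc, the glycine decarboxylase gene, had 33.7 to 35.8 CPM in tumour and 29.4 to 45.5 CPM in sham libraries (adjusted p = 0.542).

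Carriers of folate and serine had 3 of 10 tested genes higher and 0 lower, against 10.5% higher and 10.4% lower over all tested genes, the same background as for the lists that follow. Slc1a4, the neutral amino acid transporter ASCT1 that carries serine, rose 2.09-fold to 145.4 ± 0.862 CPM in tumour libraries, against 69.5 ± 14.5 CPM in sham libraries (SD, n = 3 each; edgeR adjusted p = 0.00503), a call that remained whichever library was left out. Slc6a9, the glycine transporter GLYT1, rose 2.72-fold (adjusted p = 0.0252), and Slc19a1, the reduced folate carrier, 1.24-fold (adjusted p = 0.0467). The calls of Slc6a9 and Slc19a1 were lost without any 1 of the tumour libraries, and without sham 1. That of Slc19a1 was also lost without sham 2 (adjusted p = 0.147), with no filter on low counts (0.0795) and with transcript length offsets (log2 fold change 0.18, adjusted p = 0.409). For genes that use serine or glycine, 2 of 13 were higher and 0 lower. These were the transsulfuration genes Cbs (1.55-fold, adjusted p = 0.0114), whose call was lost without tumour 1 or 3, and Cth (1.96-fold, adjusted p = 0.0123), whose call was lost without any 1 tumour library.

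The list for the methionine cycle, which takes its methyl group from folate, had 1 gene higher and 1 lower among 9 tested. Mtr, methionine synthase, rose 1.34-fold to 57.1 ± 1.32 CPM in tumour libraries, against 42.5 ± 2.04 CPM in sham libraries (SD, n = 3 each; edgeR adjusted p = 0.00708), and its call remained without any 1 library. Ahcyl1, an Ahcy-like gene on this list whose part in the cycle was not tested, fell (log2 fold change -0.45, adjusted p = 0.0132). Its call was lost without any 1 tumour library and without sham 2. The related gene Ahcy was not called (log2 fold change 0.03, edgeR adjusted p = 0.852). Purine synthesis, a main user of formate, likewise had 1 of 13 genes higher, Adssl1 (log2 fold change 1.86, adjusted p = 0.02), and 1 lower, Prps1 (-0.29, adjusted p = 0.0256). Adssl1, an adenylosuccinate synthetase known from muscle, was at 9.57 CPM in sham 3 and at 3.17 and 4.28 CPM in sham 1 and 2. Its call was lost without any 1 tumour library and without sham 2, and that of Prps1 without any 1 library other than sham 3.

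The amino acid stress response, driven by the transcription factor ATF4, had 11 of 14 genes higher (background 10.5%) and 0 lower, with a median log2 fold change of 1.09. With 1 library left out, 9 to 13 were higher, the 13 without sham 3, where 57.7% of all tested genes were called in either direction, and the 9 without a tumour library, where 6.17% to 6.33% were. ATF4 is known to act on the genes of serine synthesis and of mitochondrial folate metabolism. Its own gene Atf4 stood at 235.4 ± 4.84 CPM in tumour and 116.7 ± 20.0 CPM in sham libraries (SD, n = 3 each; log2 fold change 1.01, edgeR adjusted p = 0.00453). Trib3, a pseudokinase induced by ATF4, had 24.6, 27.5 and 27.2 CPM in tumour libraries 1 to 3, against 1.98, 2.16 and 1.63 CPM in sham libraries 1 to 3. Chac1, a glutathione-degrading enzyme, rose 7.19-fold (adjusted p = 0.000307), and Cebpb, a transcription factor, 1.86-fold (adjusted p = 0.00116). Asns, asparagine synthetase, rose 2.65-fold (adjusted p = 0.0174). Its level was 13.9, 14.6 and 28.8 CPM in sham libraries 1 to 3. Sham 3 was the highest sham library for Asns, Atf5, Sesn2, Eif4ebp1, Slc7a11, Cth and Pck2, as for Mthfd1l. It was the lowest for Atf4 (131, 126 and 93.8 CPM in sham libraries 1 to 3), Trib3, Ddit3, Cebpb, Nupr1 and Atf3. For Chac1 it lay between sham 1 and 2. Not called were Nupr1 (log2 fold change 0.32), Sesn2 (0.14) and Atf3 (-0.59, with 84.0, 88.2 and 1.18 CPM in sham libraries 1 to 3).

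Proliferation genes, which depend on folate-derived thymidylate and purines, were mixed, with 3 of 16 higher (background 10.5%) and 6 lower (background 10.4%). The replication helicase genes Mcm2 (log2 fold change -0.80, adjusted p = 0.00202) and Mcm3 (-0.55, adjusted p = 0.0107) fell, and the mitotic cyclin gene Ccnb2 rose (1.16, adjusted p = 0.00831). The call of Mcm3 was lost without tumour 1 or 2. With 1 library left out, 1 to 4 of these genes were called higher and 1 to 10 lower, the 4 and the 10 without sham 3, where 57.7% of all tested genes were called.

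Markers of other cell types were summed beside these results. Of the 14 SCLC markers, 7 could be tested and 0 were called, against 20.9% of all tested genes. The 14 came to 27.5 to 30.4 CPM in tumour and 29.5 to 43.4 CPM in sham libraries. Epcam, an epithelial adhesion gene among them, had 0.331, 0.329 and 0.237 CPM in tumour libraries 1 to 3 and 0 reads in each sham library, where 3 reads are 0.125 to 0.136 CPM; Foxa2 had at most 3 reads in any library. Microglial markers came to 88.8 to 89.1 CPM in tumour and 80.9 to 111 CPM in sham libraries, with Ptprc at most 3 reads in any library. Tmem119 alone had 86.0 to 87.7 CPM in tumour and 79.6 to 110 CPM in sham libraries, and the other 7 microglial markers were each under 1 CPM. Endothelial markers came to 619 to 627 CPM in tumour and 547 to 621 CPM in sham libraries, with Cldn5 at 0 reads. Cdh5 held 573 to 577 CPM of that sum in tumour and 497 to 595 CPM in sham libraries. Kdr fell 2.44-fold (edgeR adjusted p = 0.0035). Flt1 went the other way without a call (log2 fold change 1.05, adjusted p = 0.205), with 8.88, 8.94 and 33.9 CPM in sham libraries 1 to 3. Tek (0.44) was not called either, and Pecam1 was at most 0.499 CPM in any library. Fibroblast and mural markers reached 3820 to 3850 CPM in tumour libraries, and 3530, 3530 and 6020 CPM in sham libraries 1 to 3. These sums were above those of the astrocyte markers in each tumour library and in sham 3. Sums over different genes do not give shares of cells. Most came from Col1a2 (mean 2329 CPM in tumour, 2655 CPM in sham libraries) and Col1a1 (966 and 1293 CPM). Rgs5 had at most 0.545 CPM in any library. Oligodendrocyte markers were at 126 to 133 CPM in tumour and 120 to 133 CPM in sham libraries, with Mog at most 3 reads in any library. Cnp alone had 110 to 117 CPM in tumour and 109 to 125 CPM in sham libraries. Markers of oligodendrocyte precursors were at 351 to 357 CPM in tumour and 282 to 439 CPM in sham libraries. Among them Pdgfra rose 1.55-fold (edgeR adjusted p = 0.0326), and Olig1 had a log2 fold change of -1.36 (adjusted p = 0.105). Olig1 had 51.8, 46.8 and 171 CPM in sham libraries 1 to 3, against 33.7 to 37.8 CPM in tumour libraries. Olig2, not called either, had 5.72, 6.86 and 39.5 CPM in sham libraries 1 to 3. The sums were close for neuronal markers, at 9.6 to 11 CPM in tumour and 10.2 to 11.1 CPM in sham libraries, with Rbfox3 at 0 reads. Within that list Gad1 rose 3.25-fold (edgeR adjusted p = 0.0019) and Tubb3 fell 2.05-fold (adjusted p = 0.0172). The part of these cells in the results was not tested.

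**Figure D4:**
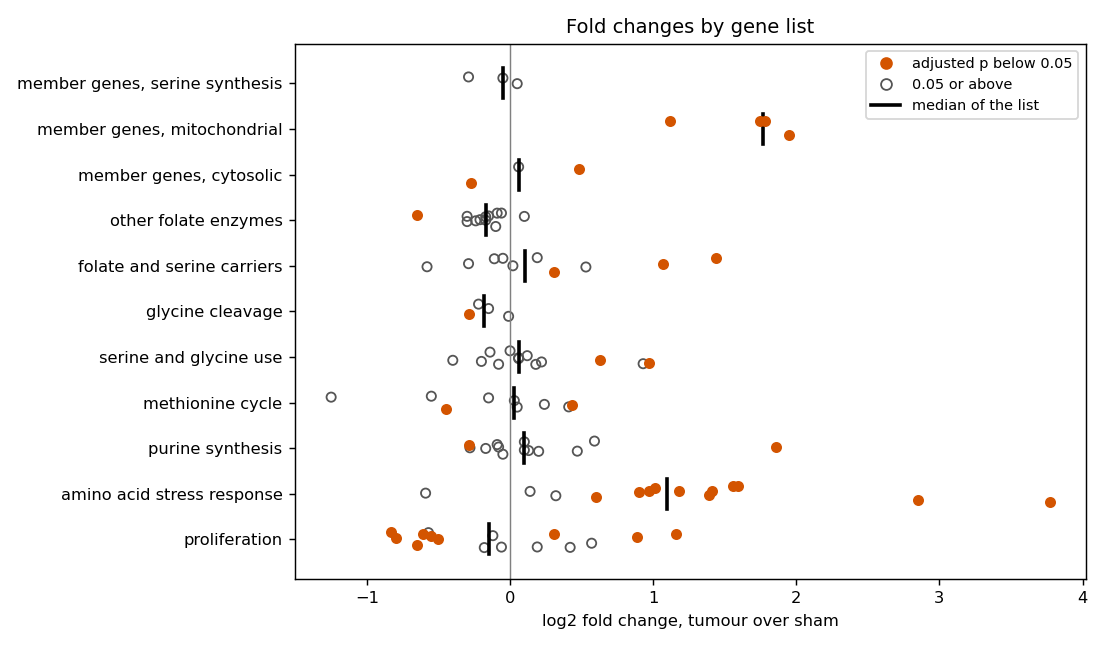
Log2 fold change (tumour over sham, edgeR) of each tested gene by list; filled points passed an adjusted p of 0.05, open points did not, and black bars are medians. The mitochondrial members (median 1.76) and the amino acid stress response genes (median 1.09) lie to the right, and the medians of the other 9 lists lie between -0.19 and 0.10.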

How the data were processed

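Groups and replicate numbers came from the sample titles. Per the submitters' processing notes, the authors used Salmon 0.8.2 and DESeq2 1.28.1 with mm10; per the file headers, each deposited table gives the estimated count and the TPM of every transcript, with its length. The sources used here do not state Salmon's index, library type or bias settings. Of 113116 transcripts, 112841 were matched to GENCODE M21 (GRCm38), whose estimated counts were added up by gene, then rounded. The deposited TPM was added up likewise.

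Genes were tested with edgeR 4.0.16 (R 4.3.3): scaling by TMM, low counts removed by filterByExpr (at least 10, in total 15), a robust quasi-likelihood model of group alone, and Benjamini-Hochberg adjustment over all 14359 genes. SEs were taken from the fold change and the root of its F. Alternatives used DESeq2 1.42.0 and limma-voom (limma 3.58.1), other scaling, no filter, length offsets, a replicate block, summed near libraries and left-out libraries. The fits were tested on simulated data. Copies were sought with blastn 2.17.0. For symbols with 2 gene IDs (Gcat, Ddit3) the one with more reads was used.

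Members and lists were chosen with earlier results of these data known. Named beside the members are up to 3 called genes with the smallest p per list, or the most abundant one, and the 5 genes nearest to Phgdh. Mthfd2l, Gldc, Gja1 and Ahcy were named after their values were seen. So were Atf4, Atf5, Asns, Ddit3, Nupr1, Sesn2, Eif4ebp1, Slc7a11, Pck2, Atf3 and the single markers of other cell types. The precision of CPM rests on depth (3 reads are 0.118 to 0.136 CPM) and covers counting error only.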

Additional observations from a re-analysis of the deposited data

How the results depend on the processing

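Shmt2, Mthfd2 and Aldh1l2 were called in 12 of 13 alternatives each and Mthfd1l in 9; Aldh1l1 was called in 6 and Mthfd1 in 5. With tumour 1 to 3 summed and sham 1 and 2 summed (1 value against 2), edgeR called 0 genes higher and 0 lower (573 at an unadjusted p below 0.05), 0 in the pathway lists, and no member, although log2 fold changes were 1.05 (Shmt2), 1.77 (Mthfd2), 1.74 (Mthfd1l), 1.69 (Aldh1l2), -0.26 (Mthfd1) and 0.43 (Aldh1l1); that fit has fewer samples. Leaving out 1 library gave 536 to 4250 genes higher and 355 to 4179 lower, 12 to 39 and 1 to 24 in the pathway lists, and log2 fold changes of -0.37 to -0.14 for Phgdh, 1.69 to 2.50 for Mthfd1l, -0.05 to 0.14 for Shmt1 (-0.05 without tumour 3), -0.30 to -0.24 for Mthfd1 and 0.42 to 0.58 for Aldh1l1. The highest counts came without sham 3, and the lowest counts of higher and lower genes without 1 of the tumour libraries. Transcript length offsets gave 968 genes lower, 5 of them in the pathway lists, and -0.28 for Mthfd1 (adjusted p = 0.0655). The difference between compartments was 1.32 in TPM. The cause was not tested.

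Deviations of same-numbered libraries from their group means had correlations of 0.008, -0.019 and -0.001. Because the tumour libraries nearly coincided, this check could neither show nor exclude a pairing by number. With the replicate block 829 genes were higher and 607 lower, with 3 lower genes in the pathway lists; Mthfd1 (-0.27, adjusted p = 0.0848) and Aldh1l1 (0.49, adjusted p = 0.0618) were not called, and the 4 mitochondrial members were.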

Other observations

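Over the 6 libraries, the profile of Phgdh (log2 CPM with 0.5 added, centred) lay nearest to those of Psma5, a proteasome subunit gene, and Nacc1, Usp5, Peg3 and Ppp1ca, among 11318 genes of at least 5 CPM on average. Their root mean square differences from Phgdh were 0.022 to 0.030 on the log2 scale. Each was highest in sham 3, for example Psma5 with 44.8, 43.8 and 43.7 CPM in tumour libraries 1 to 3, against 48.2, 49.8 and 65.3 CPM in sham libraries 1 to 3.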
